A study of Mus musculus with 4 samples.

Results

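The regions described here are 587 stretches of the mouse genome at which both splice isoforms of the transcription factor Mef2D gave a strong ChIP-seq signal, out of 19749 regions in the authors' combined table. A region was taken when it shared at least 1 bp with a listed Mef2Da1 peak and with a listed Mef2Da2 peak and had a coverage height of 100 or more in both isoform libraries. Coverage height is the authors' value for the tallest point of piled-up sequence in a region, a whole number without any depth scaling. The regions were thus chosen by the 2 isoform heights and the 2 peak lists. A further 4660 regions held peaks of both isoforms but fell below 100 in at least 1 of them, and these other shared regions serve for comparison.

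All 4 libraries came from C2C12, a mouse myoblast line that fuses into contractile myotubes, collected after 5 days in low-serum medium with horse serum, insulin and transferrin. Mef2Da1 and Mef2Da2 were endogenous proteins, each precipitated with its own peptide-raised antibody. The controls Mef2Da1-BLOCK and Mef2Da2-BLOCK were made with the same antibodies after blocking with peptide. Each group was 1 library of 1 cell line. Differences between groups therefore have no replicate check, and no p-value is given. The isoform heights are a description, since they chose the regions, while the blocked control heights were not part of the rule. Read depth was unknown, so heights carry no counting interval. The state of the cells could not be checked against muscle markers, since only DNA bound to Mef2D was measured.

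MEF2 proteins are MADS-box transcription factors that bind A/T-rich sites as dimers and act with the MyoD family to switch on muscle genes. Mef2D transcripts carry 1 of a pair of mutually exclusive exons, which lie downstream of the shared DNA-binding domain. Mef2Da1 is the widely expressed form, and Mef2Da2 is the form that appears as muscle cells differentiate. Positions are given in the build mm9 as the table lists them. No mm9 genome or annotation was used here, so no region is assigned to a gene and no sequence is shown.

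Signal was concentrated in these regions. They made up 2.97% of the combined regions but held 8.99% of the summed Mef2Da1 height and 10.4% of the summed Mef2Da2 height. Their part of the blocked controls' summed height was 3.28% for Mef2Da1-BLOCK and 3.33% for Mef2Da2-BLOCK, close to their part of the regions. The rule itself raised the isoform shares. It did not use the control heights directly, but the listed peaks it required may depend on them, as described below.

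Mef2Da1 height in the 587 regions ran from 100 to 808 with a median of 132 and quartiles of 113 and 163.5. Mef2Da2 height ran from 100 to 753 with a median of 148 and quartiles of 123 and 191. Most regions thus sat not far above the threshold, and a small number stood far above it. In the blocked controls the same regions had medians of 21 (range 6 to 40) for Mef2Da1-BLOCK and 14 (range 2 to 28) for Mef2Da2-BLOCK. The highest control value, 40, was thus well under the height of 100 that the rule asked of the isoforms. The authors' −log10 p had a median of 21.8 for Mef2Da1 (range 12.3 to 156) and of 26.6 for Mef2Da2 (range 16.6 to 143).

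**Figure D1:**
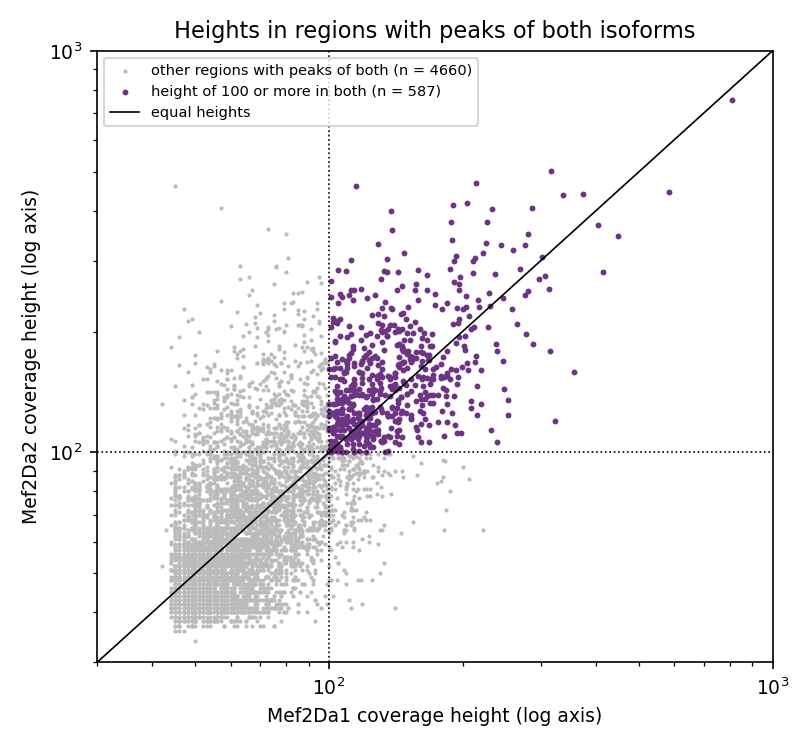
Mef2Da1 coverage height (x, log axis) against Mef2Da2 coverage height (y, log axis) in the 5247 regions with listed peaks of both isoforms. Purple points are the 587 regions at 100 or more in both, grey points the other 4660, dotted lines the threshold of 100 and the solid line equal heights; more purple points lie above the line than below it.

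**Figure D2:**
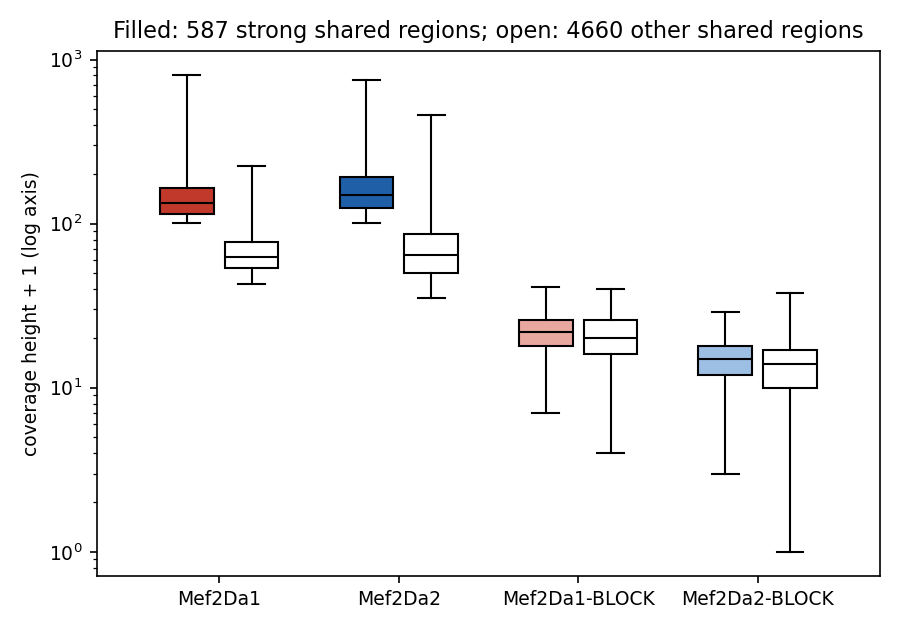
Coverage height plus 1 (log axis) in each of the 4 libraries for the 587 strong regions (filled) and the 4660 other shared regions (open). Boxes show quartiles and median and whiskers the lowest and highest value; the isoform boxes of the strong regions lie above the open ones by the rule, while the blocked control boxes nearly coincide.

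The threshold fell within a continuous range of heights. Of the 587 regions, 13 had a lower height of exactly 100, and 23 other shared regions had a lower height of 99. Just inside, chr1:16951223-16951957 had heights of 100 for Mef2Da1 and 161 for Mef2Da2, with 21 and 16 in their blocked controls. Also inside, chr1:122910684-122911171 had 100 and 132 with 19 and 8, and chr11:96767464-96768385 had 114 and 100 with 33 and 17. Just outside, chr1:73035494-73035960 had heights of 121 and 99 with 22 and 3 in the controls. The next were chr1:88368619-88369600, with 99 and 116 against 15 and 12, and chr1:93246610-93248465, with 99 and 104 against 18 and 19. The lower isoform height was alike on either side by the rule. In the regions named, taken in chromosome order among ties, Mef2Da1-BLOCK was 19 to 33 inside and 15 to 22 outside. Mef2Da2-BLOCK was 8 to 17 inside and 3 to 19 outside.

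The same height was reached more often by Mef2Da2. A height of 100 or more was found in 1494 combined regions for Mef2Da2 and in 824 for Mef2Da1. The strong shared regions were 71.2% of the Mef2Da1 regions at that height and 39.3% of the Mef2Da2 ones. Among the shared regions that failed the rule, 691 passed for Mef2Da2 alone, with a median Mef2Da1 height of 74 (range 42 to 99). In the reverse case, 214 passed for Mef2Da1 alone, with a median Mef2Da2 height of 81 (range 41 to 99). These failed on height in a single isoform, since each also held a listed peak of the isoform that fell below 100. Taking the same number of regions by rank within each library, so that the lowest heights became 92 for Mef2Da1 and 111 for Mef2Da2, kept 520 of the 587 (88.6%).

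The 20 regions with the lowest sum of height ranks in both isoforms, a rule based on the same heights, lay on 12 chromosomes, 4 of them on chromosome 10 and 3 on chromosome 5. The first was chr19:4992148-4993765, with heights of 808 for Mef2Da1 and 753 for Mef2Da2, ranked first for both, and 18 and 14 in Mef2Da1-BLOCK and Mef2Da2-BLOCK. This region was 42.6-fold above its control for Mef2Da1 and 50.3-fold for Mef2Da2, with 1 added to each height before the ratio. The second, chr10:85775792-85777110, had 583 and 446 with 30 and 22 in the controls. After these the heights of neighbouring places lay closer together, and the order of the isoforms varied from region to region.

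Mef2Da2 was the taller by height in most of the following places. At chr17:15598576-15600400 the heights were 374 for Mef2Da1 and 441 for Mef2Da2, with 27 and 17 in the controls. The region chr4:47616012-47617383 had 316 and 501 with 16 and 15. Its neighbour in rank, chr12:35213606-35214467, had 337 and 438 with 21 and 13. All 3 were over 300 for both isoforms and under 30 in both controls. The same order held at chr1:93112500-93114242, with 287 and 405 against 22 and 19, and at chr18:61664807-61665737, with 281 and 349 against 27 and 11. At chr13:114244668-114245829 the isoforms were nearly level, at 302 and 306 against 28 and 14.

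Mef2Da1 was the taller in the other 3 of the first 11 places, as it was in the top pair. The heights were, at chr10:80401686-80404955, 405 and 369 against 33 and 19. At chr5:53009064-53010310 they were 448 and 345 against 25 and 18, and at chr5:123584472-123588207 they were 415 and 282 against 27 and 15. Further down, 7 of the remaining 9 had the higher value for Mef2Da2. Among them, chr7:135147073-135148505 had 276 and 329 against 22 and 21. A wider gap was seen at chr1:132959047-132960040, with 233 and 403 against 23 and 16. The region chr15:36784501-36786595 had 260 and 319 against 30 and 18.

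Among the last 6 of the 20, chr10:80213878-80214898 stood out with 214 for Mef2Da1 and 469 for Mef2Da2, against 17 and 20. It was the only one of the 20 in which the isoforms differed by over 2-fold once heights were divided by each library's summed height. In chr10:66750363-66751260 the heights were 244 and 329 with 23 and 18 in the controls. The region chr11:29677863-29678586 had 227 and 375 with 26 and 16, and chr13:74500493-74501871 had 270 and 286 with 26 and 24. Both chr5:148661704-148662623 (307 and 275 against 14 and 8) and chr11:102078687-102081678 (298 and 271 against 22 and 18) had the higher value for Mef2Da1. Over the 20, height over control was 8.42-fold to 42.6-fold for Mef2Da1 (median 12.3) and 11.5-fold to 50.3-fold for Mef2Da2 (median 20.4).

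**Figure D3:**
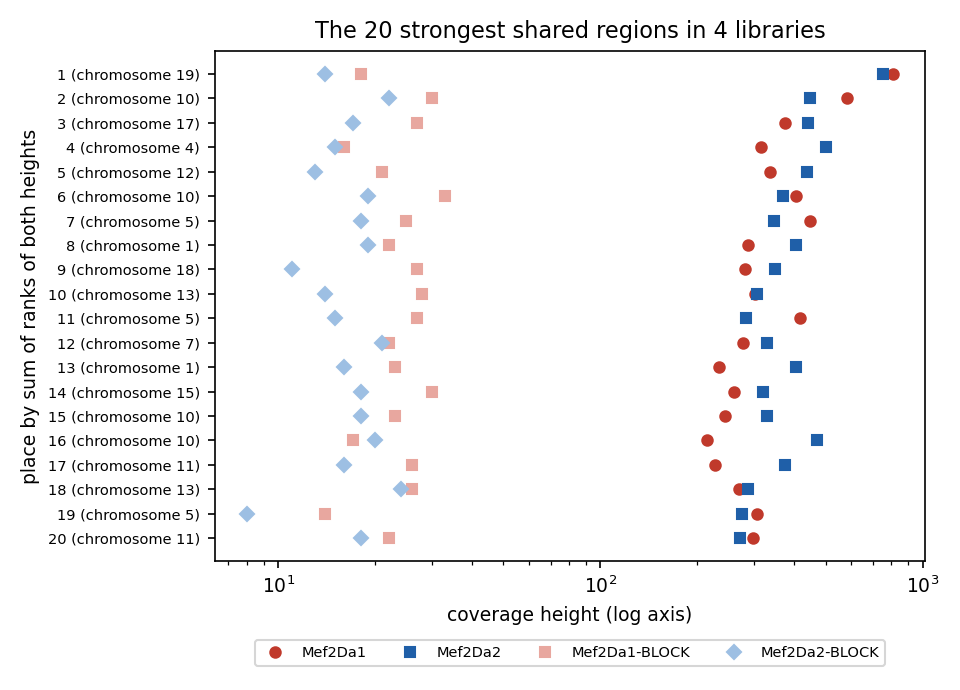
Coverage height (x, log axis) in the 4 libraries at the 20 strong regions with the lowest sum of height ranks, in order from the top. Isoform points lie between 214 and 808 and control points between 8 and 33, with no overlap.

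Each isoform was compared with its own blocked control, unscaled and with 1 added to each height, to ask how far the signal stood above that of the same antibody after blocking. All 587 regions were at least 2-fold above the control for both isoforms, against 64.7% of all combined regions for Mef2Da1 and 75% for Mef2Da2. At 4-fold the counts were 543 regions for Mef2Da1 (92.5%) and 586 for Mef2Da2 (99.8%), against 14% and 38.2% of all combined regions. At 8-fold they were 177 regions for Mef2Da1 (30.2%) and 455 for Mef2Da2 (77.5%), against 1.72% and 13% of all combined regions. At 16-fold 13 regions remained for Mef2Da1 (2.21%) and 133 for Mef2Da2 (22.7%), against 0.0911% and 2.19%. Nothing is read from these counts, because the rule fixed the numerator. The median log2 ratio was 2.71 (quartiles 2.40 and 3.06) for Mef2Da1 and 3.45 (3.03 and 3.92) for Mef2Da2. Scaling each library to its total height lowered the medians to 1.38 and 1.59, and scaling to the median ratio of all regions lowered them to 1.52 and 1.82. The lowest ratio of a member was 2.97-fold for Mef2Da1 and 3.93-fold for Mef2Da2.

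The blocked controls, which the rule did not use directly, stood at nearly the same height here as in the other shared regions. Medians were 21 and 19 for Mef2Da1-BLOCK and 14 and 13 for Mef2Da2-BLOCK, in strong and other shared regions. A control score of 3 or more, on the authors' −log10 p scale, was found in 22.1% of strong regions (95% binomial interval 18.8 to 25.7) and 20.2% of other shared regions (19.1 to 21.4) for Mef2Da1-BLOCK. For Mef2Da2-BLOCK the shares were 5.79% (34 of 587) and 5.13% (4.51 to 5.80). Over all combined regions, which were narrower (median width 556 bp), the shares were lower, at 16.5% for Mef2Da1-BLOCK and 3.68% for Mef2Da2-BLOCK. These intervals cover counting error only and treat regions as independent. Across the 587 regions, the heights of an isoform and its own control had a Spearman correlation of 0.16 for Mef2Da1 and 0.08 for Mef2Da2. The correlation between the controls was 0.45; they share the cell line, the regions and their widths.

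Control height rose with region width, and strong regions were wider than other shared regions. The median width was 915 bp (quartiles 711 and 1224, range 365 to 3841) in strong regions and 669 bp in the others. Width had a Spearman correlation of 0.38 with Mef2Da1-BLOCK height and 0.39 with Mef2Da2-BLOCK height over the 587 regions. Within width classes the controls of strong and other shared regions were within 2 units of each other. Below 600 bp the medians were 18 in 82 strong regions and 16 in 1853 others for Mef2Da1-BLOCK, and 11 in both for Mef2Da2-BLOCK. At 1400 bp or more they were 25 in both sets for Mef2Da1-BLOCK and 17 in both for Mef2Da2-BLOCK, in 92 strong and 251 other regions.

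**Figure D4:**
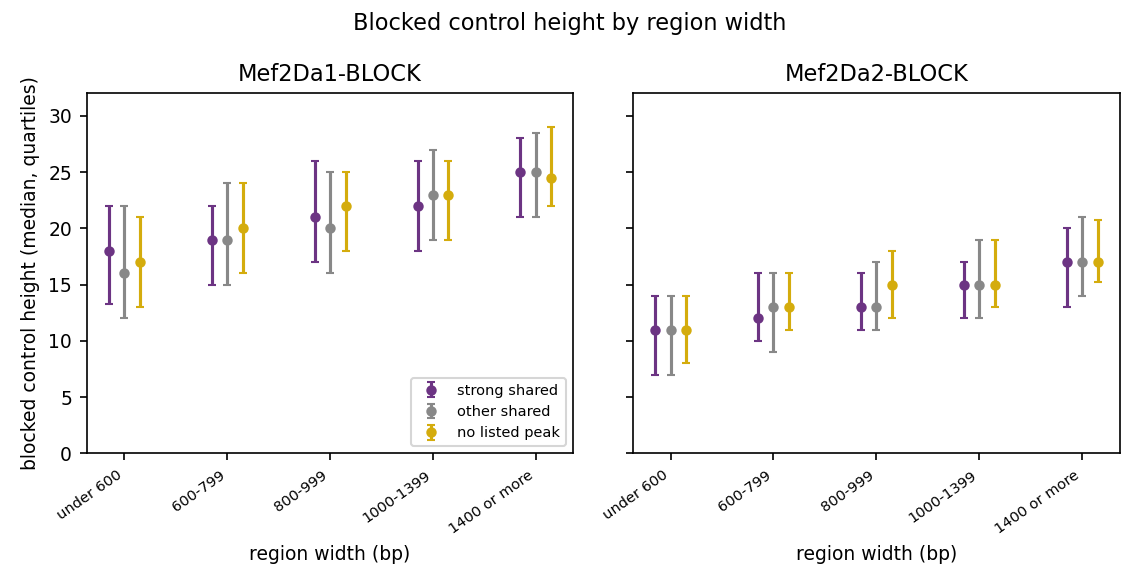
Height in Mef2Da1-BLOCK (left) and Mef2Da2-BLOCK (right) against region width in 5 classes (bp), for the strong shared regions, the other shared regions and the regions without a listed peak. Points are medians and bars quartiles; in all 3 sets the control height is larger in wider regions, from 16 to 18 below 600 bp to between 24.5 and 25 at 1400 bp or more for Mef2Da1-BLOCK.

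In unscaled heights, strong regions with the highest control signal were still above it. The rule set a minimum isoform height, so this gap came at least in part from the rule. Summed height was 955997 for Mef2Da2 and 247315 for Mef2Da2-BLOCK, so scaling to total height would shrink the gap. At chr11:72973660-72975473, with 109 for Mef2Da2 and 27 in its control, such scaling would leave isoform and control nearly level. Whether the others stayed well above their controls after scaling was not tested. The highest Mef2Da1-BLOCK height was 40, at chr16:10896931-10898664, where Mef2Da1 had 170, Mef2Da2 152 and Mef2Da2-BLOCK 9. Next were chr11:79551510-79553341, with a Mef2Da1-BLOCK height of 39, and 3 regions at 37. Of these, chr15:101083326-101085320 had 265 for Mef2Da1 and 209 for Mef2Da2, chr8:87284208-87285380 had 174 and 163, and chr1:64168149-64169266 had 253 and 124. The highest Mef2Da2-BLOCK height was 28, at chr17:28464441-28466270, with 107 for Mef2Da1, 128 for Mef2Da2 and 25 in Mef2Da1-BLOCK. A Mef2Da2-BLOCK height of 27 was found at chr8:86271274-86272425, chr2:156562554-156563097, chr3:37773651-37775439 and chr11:72973660-72975473, where Mef2Da2 reached 314, 207, 117 and 109. The 5 highest of each control shared no region, but some were high in both: chr8:86271274-86272425 also had 33 in Mef2Da1-BLOCK, and chr11:79551510-79553341 had 25 in Mef2Da2-BLOCK.

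A height of 100 in both isoforms was also met by 10 regions that lacked a listed peak of 1 isoform and so are not among the 587. In 9 of them the Mef2Da1 peak was missing. Their Mef2Da1 heights were 101 to 350 (median 248), their Mef2Da2 heights 103 to 386 (median 286) and their Mef2Da1-BLOCK heights 37 to 49 (median 41). The control scores of these 9 were 5.12 to 7.21, whereas the highest score of a strong region was 5.49. Both isoforms were over 300 at chr1:94683390-94684276, with 350 and 342 against 38 and 33, and at chr1:73961495-73962646, with 312 and 324 against 45 and 21. The Mef2Da1 height was also 350 at chr11:54335886-54336719, with 163 for Mef2Da2 against 39 and 22, and the highest Mef2Da2 height, 386, was at chr15:79073230-79074435, with 248 for Mef2Da1 against 44 and 26. The 10th region, chr9:63550059-63551635, lacked a Mef2Da2 peak and had 129 and 172 against 30 and 34. The missing peaks thus went with high signal in the control of the same antibody, for Mef2Da2 in this 1 region only. No strong region exceeded 40 in Mef2Da1-BLOCK or 28 in Mef2Da2-BLOCK. The other shared regions, which do hold a listed Mef2Da2 peak, reached 37 in Mef2Da2-BLOCK. Whether the authors' lists took the control into account was not tested, and the blocked heights of the 587 may not be independent of the lists.

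With heights divided by the summed height of their library, the isoforms were within 2-fold of each other in 550 of the 587 regions (93.7%, 95% binomial interval 91.4 to 95.5). The background over all combined regions was 83.4%, and the share in the other shared regions was 93.4%. Mef2Da2 was over 2-fold higher in 34 regions (5.79%, background 7.03%) and Mef2Da1 in 3 (0.511%, background 9.62%). The shares in the other shared regions were close to these, at 5.71% for Mef2Da2 and 0.858% for Mef2Da1. The median log2 ratio of Mef2Da1 to Mef2Da2 was −0.15 (quartiles −0.44 and 0.08), and Mef2Da2 was the higher in 387 regions (65.9%), against 40% of all combined regions and 49.3% of the other shared ones. In the other shared regions the median was 0.00. Scaling moved these counts. Scaled to the median ratio, Mef2Da2 was over 2-fold higher in 47 regions (8.01%, background 9.71%) and Mef2Da1 in 1 (0.170%, background 6.13%). Scaled to the blocked controls' totals, Mef2Da2 was over 2-fold higher in 154 regions (26.2%, background 20.2%) and Mef2Da1 in 0 (background 1.71%). The share of strong regions within 2-fold was then 73.8%, below the background of 78.1% and the 78.2% of the other shared regions. The share toward Mef2Da2 was thus below the background under the total and median scalings and above it under the scaling to the controls. The median stayed below 0 under each scaling, at −0.32 and −0.73 for the last pair and −0.13 without scaling. The rule used the same heights, so this direction is a description. Regions chosen by rank within each library had a median of −0.26.

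The tilt was much the same over the range of heights. The median log2 ratio was −0.18 in the 260 regions with a lower height of 100 to 119, −0.15 in 186 regions at 120 to 149, and −0.13 in 97 at 150 to 199. It was −0.18 in the 36 regions at 200 to 299. In the 8 regions at 300 or more it was 0.02, with quartiles of −0.30 and 0.17 that overlap those of every other class. Mef2Da1 and Mef2Da2 height had a Spearman correlation of 0.43 over the 587 regions (Pearson 0.52 on log2 heights), a description over regions of the same cells that were cut off at 100 on both axes. In the other shared regions the Spearman value was also 0.43.

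The regions with the most uneven signal leaned further toward Mef2Da2 than toward Mef2Da1. At chr6:24547278-24548253 the heights were 115 for Mef2Da1 and 461 for Mef2Da2, with 28 and 20 in the controls, a scaled difference of 4.06-fold. The next, chr12:53955167-53955911, had 138 and 399 with 22 and 7, a difference of 2.93-fold. Then came chr2:154199866-154201465 (105 and 284), chr12:16842707-16843444 (112 and 301) and chr14:35401054-35402436 (101 and 267). In all 5, Mef2Da1 was between 101 and 138, near the threshold, while Mef2Da2 ranked between 4 and 50 of the 587. Toward Mef2Da1, chr13:5859973-5861176 had 323 and 120 with 28 and 16, a scaled difference of 2.63-fold. It was followed by chr12:8505535-8507300 with 239 and 106 against 36 and 22, and by chr17:7031318-7032946 with 356 and 159 against 32 and 17. The last pair, chr1:64168149-64169266 (253 and 124) and chr14:26493193-26494058 (232 and 114), were just under 2-fold. The isoform ratio and the ratio of the controls had a Spearman value of 0.06, over regions that share the 4 libraries.

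Peaks of the isoforms were nearly centred on each other. Using the tallest listed peak of each isoform in a region, the midpoints lay a median of 31.5 bp apart (quartiles 13.5 and 69.5), against 29.5 bp in the other shared regions. They were within 50 bp in 398 of 587 regions (67.8%) and within 100 bp in 492 (83.8%). In the other shared regions these shares were slightly higher, at 70.2% and 88.1%. The signed offset, Mef2Da2 minus Mef2Da1 along the chromosome, had a median of −1.5 bp (95% interval over regions −5 to 1.5). The Mef2Da1 peak was the wider in 460 regions (78.4%, 95% binomial interval 74.8 to 81.6), with a median width of 607 bp against 499 bp for Mef2Da2. In 320 regions (54.5%) the Mef2Da2 peak lay wholly within the Mef2Da1 peak, and in 48 (8.18%) the reverse held. The other shared regions went the same way. There the Mef2Da1 peak was the wider in 72.2%, the Mef2Da2 peak lay within it in 47.4%, and the reverse held in 12.9%. Both peaks of the strong regions were wider than those of the other shared regions, where the medians were 428 and 372 bp. The ratio of peak widths had a Spearman correlation of 0.32 with the ratio of heights; both come from the same pile-up.

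Most regions held a single peak of each isoform (537 of 587). The other 50 (8.52%, 95% binomial interval 6.39 to 11.1) held 2 or more peaks of at least 1 isoform, against 3.95% (3.41 to 4.55) of the other shared regions. Strong regions were also the wider, and the part of width in this was not tested. Both isoforms had 3 peaks in 2 regions. One was chr5:123584472-123588207, where the Mef2Da1 peaks had heights of 162, 415 and 57 in order along the chromosome and the Mef2Da2 peaks 93, 282 and 77. The tallest peak was the middle one for both isoforms, with midpoints 140.5 bp apart. The other was chr12:8516444-8518426, where the Mef2Da1 peaks had heights of 137, 53 and 67 and the Mef2Da2 peaks 138, 49 and 42. There the first peak was the tallest for both.

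All 5 of the widest regions held 2 or more listed peaks of at least 1 isoform. The widest of all, chr1:136089629-136093470 (3841 bp), had heights of only 102 for Mef2Da1 and 112 for Mef2Da2, with 28 and 20 in the controls. At chr15:73576329-73579629 (3300 bp) they were 248 and 144 with 28 and 22. The region chr10:80401686-80404955 (3269 bp), among the 20 strongest, had Mef2Da1 peaks of 73 and 405 and a single Mef2Da2 peak of 369. The smaller Mef2Da1 peak had no listed Mef2Da2 partner. Similarly, chr7:135147073-135148505 had Mef2Da1 peaks of 276 and 57 and 1 Mef2Da2 peak of 329, and chr1:93112500-93114242 had Mef2Da1 peaks of 58 and 287 and 1 Mef2Da2 peak of 405.

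In 5 regions the tallest listed peaks of the isoforms did not overlap; these were singled out after their values were seen. At chr15:99163059-99165582 the left site had heights of 106 for Mef2Da1 and 244 for Mef2Da2, and the right site had 107 and 99. At chr9:121685005-121687758 the left site had 157 and 203 and the right site 160 and 142, and at chr17:46047703-46049697 the left site had 93 and 154 and the right site 132 and 136. Each of these regions held peaks of both isoforms at both sites. In chr1:136089629-136093470 the left site had 102 and 97, while the right side held a Mef2Da1 peak of 83 and Mef2Da2 peaks of 112 and 82. The fifth was chr11:79551510-79553341. Its table heights were 194 and 148, but its only listed Mef2Da1 peak had a height of 64, beside a Mef2Da2 peak of 65, and the Mef2Da2 peak of 148 lay elsewhere in the region with no listed Mef2Da1 peak. It was the 1 region of 587 in which the table height of Mef2Da1 differed from that of its tallest listed peak, and its Mef2Da1-BLOCK height of 39 was the second highest among the 587. Neither this region nor chr1:136089629-136093470 had a site at which the listed peaks of both isoforms reached 100.

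The combined regions all lay on the 19 autosomes, so no region of a sex chromosome could be chosen. The 587 regions were spread over all 19 autosomes, from 12 on chromosome 19 to 51 on chromosome 1. They were 2.97% of all combined regions, and the exact 95% binomial interval of 18 chromosomes held this value. The exception was chromosome 4, with 19 of 1194 regions (1.59%, interval 0.961 to 2.47). Chromosome 6 had the highest share, with 36 of 942 (3.82%, interval 2.69 to 5.25). With 19 intervals, about 1 would be expected to miss the common value. Chromosome 15 had 42 of 1452 regions (2.89%, interval 2.09 to 3.89), close to the share over all chromosomes. By chromosome, the median Mef2Da1 height lay between 121 and 153 and the median Mef2Da2 height between 135 and 201.5, both highest on chromosome 16 with its 14 regions. The median log2 ratio of the isoforms was below 0 on 18 chromosomes and 0.02 on chromosome 11.

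**Figure D5:**
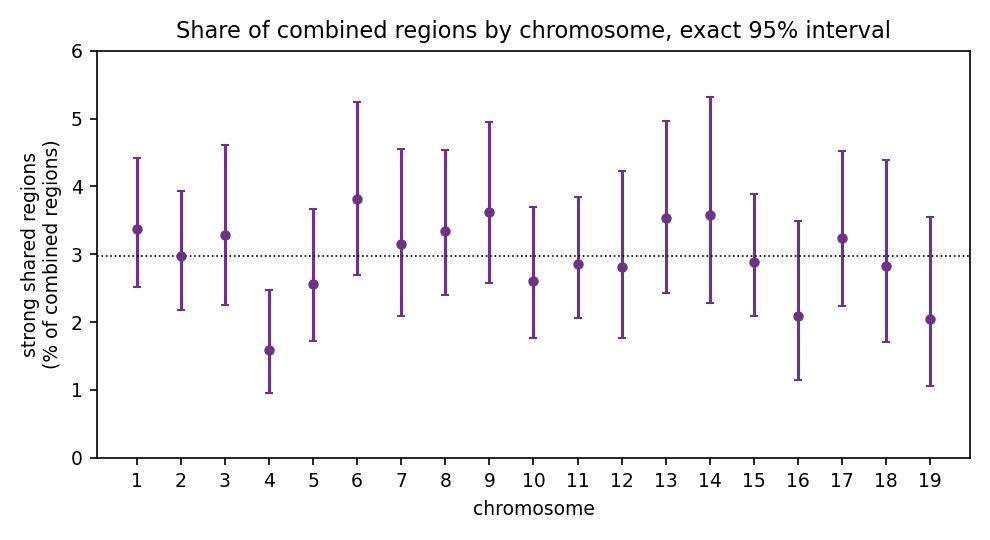
Strong shared regions as a percentage of the combined regions on each of the 19 autosomes, with exact 95% binomial intervals (bars) and the share over all chromosomes of 2.97% (dotted line). Chromosome 4, at 1.59%, has the only interval that leaves out the dotted line.

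Strong regions usually had another combined region nearby, as did the other shared regions. Another strong region was seldom as near, and strong regions were only 2.97% of the combined regions. The gap to the nearest combined region of any kind had a median of 6995 bp, and to the nearest shared region of 28310 bp. For the other shared regions these gaps were 7897 bp and 41274 bp. Another shared region lay within 10 kb of 189 strong regions (32.2%, 95% binomial interval 28.4 to 36.1), and of 26.0% (24.8 to 27.3) of the other shared regions. The nearest strong region was a median of 0.696 Mb away. In all, 119 strong regions (20.3%) stood within 100 kb of another. At a height of 80 or more this share was 31.7% of 1122 regions, and at 150 or more 9.93% of 141. The 119 strong regions formed 52 pairs and 5 groups of 3.

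Within these groups the isoforms could differ from one region to the next. On chromosome 15, 3 strong regions lay within 14.2 kb. The first, chr15:101083326-101085320, had heights of 265 for Mef2Da1 and 209 for Mef2Da2 with 37 and 15 in the controls. The second, chr15:101090386-101091297, had 102 and 216 with 30 and 14, and the third, chr15:101096071-101097521, had 192 and 117 with 27 and 21. The middle region thus leaned to Mef2Da2 by over 2-fold after scaling (log2 ratio −1.10) and its neighbours to Mef2Da1 (0.31 and 0.68). On chromosome 8, 3 regions within 19.6 kb also went from one isoform to the other after scaling to total height. There chr8:64381310-64382318 had 101 and 244 with 18 and 16, chr8:64387115-64387788 had 196 and 215 with 27 and 15, and chr8:64400307-64400931 had 172 and 139 with 14 and 6. These directions depend on the scaling. Scaling to the blocked controls' totals would turn both chr8:64400307-64400931 and chr15:101083326-101085320 toward Mef2Da2.

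The other 3 groups were looser. On chromosome 10, the region named above at 80213878 (214 and 469) was followed by chr10:80236613-80238024, with 161 and 164 against 18 and 23, and chr10:80299366-80300240, with 181 and 145 against 20 and 9. On chromosome 7, within 64.6 kb, chr7:56589340-56590255 had 129 and 221 against 15 and 14, chr7:56598384-56599053 had 141 and 143 against 17 and 15, and chr7:56652714-56653984 had 144 and 173 against 25 and 12. The group on chromosome 3 was the most even, spanning 97.8 kb. Its regions were chr3:122721671-122722405 with 147 and 168, chr3:122795225-122795784 with 168 and 175, and chr3:122818653-122819470 with 128 and 152, and no control there exceeded 18. All 3 leaned to Mef2Da2 by less than 1.5-fold after scaling to total height.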

How the data were processed

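ChIP-seq libraries of Mef2Da1, Mef2Da2 and their peptide-blocked controls were used, 1 per group. Reads were mapped with BWA 0.5.9 to mm9, per the submitters' processing notes. How peaks were called and filtered, how combined regions were formed and how many reads each library had is not given in the sources used here. The authors deposited, per the file headers and values, a coverage signal (maximal height, not scaled), a −log10 p for each peak and region, and for the blocked controls the same column, treated as a score because some values are below 0. The combined table names its isoform columns as the peak lists do, and each list belongs to 1 sample, which gave the match.

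Overlaps needed 1 shared bp, with starts read as 0-based. Log2 ratios used a pseudocount of 1; the isoform ratio was scaled to total height. Shares carry exact 95% binomial intervals, and medians over regions were compared without tests. Overlap code was tested on simulated data. Regions were named by fixed rules: the 20 lowest rank sums, the 5 largest ratios each way, the 5 highest per blocked control, the 5 widest, and 3 on either side of the threshold. The region set and all rules were chosen with earlier results of these data known. Gene context and motifs were not run without an mm9 reference. Tables were handled with pandas 2.3.3 and NumPy 2.4.6 under Python 3.11.15, intervals came from SciPy 1.17.1, and plots from Matplotlib 3.10.9. Alternatives changed the height threshold, the overlap rule, the pseudocount, the scaling and the gap within groups of regions.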

Additional observations from a re-analysis of the deposited data

How the results depend on the processing

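Of 80 alternative values, 54 stayed within the exact 95% interval of the share or median reported and 26 moved. For the number of regions, the limit was 1.5 times. None changed sign, which only the log2 ratios could do. The share over 2-fold toward Mef2Da2 was below that of all combined regions under the main scaling (5.79% against 7.03%). It was above it under scaling to the blocked controls' totals. At a height of 80 or more there were 1122 regions, with a median log2 ratio to the blocked control of 2.49 for Mef2Da1 and 3.20 for Mef2Da2, a median width of 858.5 bp and 31.7% of regions within 100 kb of another. At 150 or more there were 141 regions, with medians of 3.15 and 3.83, Mef2Da2 over 2-fold above Mef2Da1 in 2.84%, a Mef2Da1-BLOCK median of 22, a width of 986 bp and 9.93% of regions near another. The ratio shifts follow from the threshold itself. Choosing the same number by rank gave a median isoform log2 ratio of −0.26, and keeping the regions with 1 peak of each isoform gave a width of 873 bp. A pseudocount of 5 lowered the ratios to the controls to 2.50 and 3.11. Scaling to the total gave 1.38 and 1.59, and to the median ratio 1.52 and 1.82. Between the isoforms, median scaling gave a median of −0.32 with 8.01% of regions over 2-fold toward Mef2Da2. Scaling to the blocked controls' totals gave −0.73, with 26.2% toward Mef2Da2 and 0% toward Mef2Da1, against 20.2% and 1.71% of all combined regions. Which scaling is right was not tested. Runs within 20 kb held 10.6% of regions. Requiring the midpoint of a peak of each list in the region left all 12 values as they were, and dropping the need for listed peaks, an alternative chosen after seeing the data, gave 597 regions. No paired analysis was possible because each group has 1 library. Results that need genes or motifs were not run. Unknown depth limits every comparison of heights between libraries.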
